A study of Mus musculus with 8 samples.

Results

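The sodium-potassium ATPase of the mouse hippocampus was followed through 6 transcripts that encode partners of its catalytic subunit. Atp1b1, Atp1b2 and Atp1b3 encode beta subunits, and Fxyd1, Fxyd6 and Fxyd7 encode small regulators of the pump. They are 6 rows of a count table of 24421 genes, and all 6 were among the 15999 genes that passed the filter on low counts. The 6 rows were chosen by name with their CPM, the count divided by the library total and scaled to a common size, in all 4 groups already known. Their levels and age differences are therefore a description, and the adjusted p-values below only set a difference against the spread between libraries.

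The sodium-potassium ATPase exports sodium and imports potassium at the expense of ATP, and so maintains the ion gradients that neurons discharge when they fire. A catalytic alpha subunit needs a glycosylated beta subunit to fold and to reach the membrane. FXYD proteins are single-pass membrane proteins that bind the assembled pump and adjust its affinity for ions. In brain, beta1 is the common neuronal form, and beta2, first known as the adhesion molecule on glia, is made by glia and by neurons. FXYD7 is a brain form, FXYD6 was described in brain as phosphohippolin, and FXYD1 is phospholemman, which in brain is known from the choroid plexus.

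Libraries of ribosome-depleted total RNA came from hippocampi of wildtype C57BL/6J mice labelled male, with 2 libraries in each of 4 groups. IUGR mice (intrauterine growth retardation) were offspring of dams injected intraperitoneally with dexamethasone, a synthetic glucocorticoid, at 1 mg/kg per day on 5 days from 14.5 days post coitum. NS mice were offspring of dams given the same volume of normal saline over those days. The groups were IUGR at week 8, NS at week 8, IUGR at postnatal day 3 and NS at postnatal day 3. The labels give the dam's treatment as the model and no measure of growth of the offspring. They do not say whether 2 libraries of a group came from separate animals or litters, so p-values measure only the spread between these libraries. At week 8 that spread may be technical. At postnatal day 3 the 2 libraries of a group differed in sex-linked counts, given below, so they were not repeats of the same RNA. The part of sex in their spread was not tested.

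Total counts ranged from 13030277 to 18993050 per library, and the members had between 66 and 36204 counts. All 7 hippocampal field markers listed for this check were counted in every library, with sums of 472 to 841 CPM. Both replicate 2 libraries of postnatal day 3 went against the male label. They held 5130 (IUGR) and 4998 (NS) counts of Xist, the RNA of the inactive X chromosome, and 74 (IUGR) and 34 (NS) counts over 4 Y-linked genes. The other 6 libraries held 1 to 81 counts of Xist and 2023 to 5364 Y-linked counts. At week 8 the replicate 2 libraries stood apart from the replicate 1 libraries in both treatments. They had 2 (IUGR) and 0 (NS) counts of the noncoding RNA Rpph1, and the other 6 libraries had at least 872768. Each age was deposited as a table of its own, and age cannot be told apart from any difference in how the tables were made.

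Atp1b1, the beta1 subunit, was the member with the highest CPM at week 8. It had 906 and 2248 CPM in IUGR libraries and 962 and 1906 CPM in NS libraries at week 8. Its levels at postnatal day 3 were 315 and 343 CPM in IUGR libraries and 302 and 307 CPM in NS libraries. Every week 8 library was above every postnatal day 3 library, and within week 8 the replicate 2 libraries were the high ones in both treatments. The ratio of the group means, week 8 over postnatal day 3, was 4.79 in IUGR and 4.71 in NS. By edgeR's quasi-likelihood test with Benjamini-Hochberg adjustment over all genes, the log2 fold change was 2.37 ± 0.52 (SE, adjusted p = 0.0283, n = 2 libraries each) in IUGR. In NS it was 2.27 ± 0.52 (SE, adjusted p = 0.0358 by the same edgeR test, n = 2 each). Fitted on the libraries of 1 treatment alone, Atp1b1 did not pass (edgeR adjusted p = 0.0577 in IUGR and 0.0771 in NS). The call was lost with adjusted p = 0.0925 in IUGR without its week 8 replicate 2 (log2 fold change 1.56), and with adjusted p = 0.0995 in NS without its week 8 replicate 2 (1.67), by the edgeR test. Leaving out any 1 library of postnatal day 3 also ended it, in both treatments, with edgeR adjusted p from 0.0725 to 0.223. The gene lies on chromosome 1 at 164437109 to 164458355 of GRCm38, minus strand, and shares 575 exon bases with Nme7 on the other strand. Whether counting used strand is not given, so reads of the 2 genes in that stretch cannot be told apart.

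**Figure D1:**
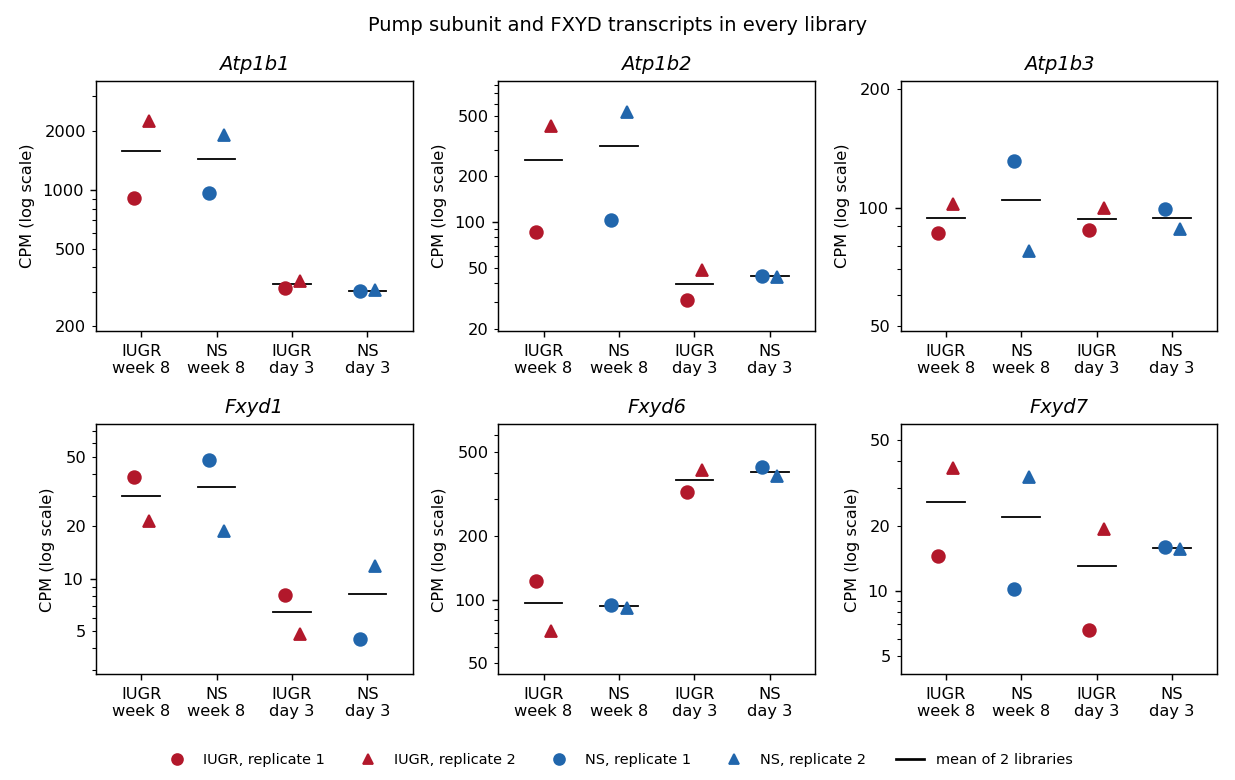
CPM of the 6 members in every library on log axes, with IUGR left of NS and week 8 left of postnatal day 3; circles are replicate 1, triangles replicate 2 and bars the mean of 2 libraries. Atp1b1 and Atp1b2 were higher at week 8 and Fxyd6 was lower in every week 8 library, and Atp1b3 lay between 77.8 and 131 CPM throughout.

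Atp1b2, the beta2 subunit, had the largest ratio between its highest and lowest library among the beta subunits. At week 8 it had 86.2 and 426 CPM in IUGR libraries and 104 and 528 CPM in NS libraries. In the libraries of postnatal day 3 there were 30.9 and 48.4 CPM in IUGR libraries and 44.8 and 44.1 CPM in NS libraries. The ages did not overlap, but the 2 week 8 libraries of a group differed 4.95 times in IUGR and 5.08 times in NS. The log2 fold change, week 8 over postnatal day 3, was 2.80 ± 0.96 in IUGR (SE, adjusted p = 0.0917) and 2.87 ± 0.96 in NS (SE, adjusted p = 0.0951), by edgeR's test with n = 2 libraries each. Neither passed the threshold of 0.05. Without both replicate 2 libraries of week 8 the log2 fold change was 1.24 in IUGR and 1.24 in NS, and without both replicate 1 libraries it was 3.53 in IUGR and 3.60 in NS. The gene lies on chromosome 11 at 69599736 to 69605942, minus strand.

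Atp1b3, the beta3 subunit, had overlapping levels at week 8 and at postnatal day 3. It had 86.3 and 102 CPM in IUGR libraries and 131 and 77.8 CPM in NS libraries at week 8. The levels at postnatal day 3 were 87.8 and 100.2 CPM in IUGR libraries and 99.7 and 88.4 CPM in NS libraries. No age or treatment stood apart. Its log2 fold change with age was 0.11 in IUGR, with a 95% interval from -0.56 to 0.78, and 0.18 in NS, with an interval from -0.49 to 0.84. Neither passed the edgeR test (adjusted p = 0.807 in IUGR and 0.694 in NS, n = 2 libraries each), which leaves changes inside those intervals undetected. The gene lies on chromosome 9 at 96332655 to 96364442, minus strand.

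Fxyd6 was the member that fell with age. It had 123 and 71.0 CPM in IUGR libraries and 94.8 and 91.8 CPM in NS libraries at week 8. Postnatal day 3 gave 323 and 412 CPM in IUGR libraries and 423 and 385 CPM in NS libraries. Every week 8 library was below every postnatal day 3 library, and the group mean at week 8 was 0.264 of that at postnatal day 3 in IUGR and 0.231 of it in NS. The log2 fold change was -1.82 ± 0.31 in IUGR (SE, adjusted p = 0.0139) and -2.09 ± 0.31 in NS (SE, adjusted p = 0.0110), by edgeR's test with n = 2 libraries each. The call was lost in IUGR without IUGR replicate 1 or 2 of postnatal day 3 (edgeR adjusted p = 0.0849 and 0.1002). In NS it was lost without NS replicate 1 or 2 of postnatal day 3 (edgeR adjusted p = 0.0998 and 0.0927). The direction held in all of these fits. The gene lies on chromosome 9 at 45370185 to 45396159, plus strand, 3509 bases from its neighbour Fxyd2.

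Fxyd1 was higher in every week 8 library, without passing the edgeR threshold. At week 8 it had 38.5 and 21.5 CPM in IUGR libraries and 48.1 and 18.8 CPM in NS libraries. At postnatal day 3 it had 8.11 and 4.85 CPM in IUGR libraries and 4.54 and 11.9 CPM in NS libraries. The ages did not overlap, and the week 8 replicate 1 libraries were the high ones in both treatments, the reverse of Atp1b1 and Atp1b2. Its log2 fold change with age was 2.31 ± 0.66 in IUGR (SE, adjusted p = 0.0572) and 2.05 ± 0.65 in NS (SE, adjusted p = 0.0835), by edgeR's test with n = 2 libraries each, so neither passed. Leaving out 1 library gave 1.22 (NS replicate 1 of week 8), 1.50 (NS replicate 1 of postnatal day 3) and 2.89 (NS replicate 2 of postnatal day 3) for the NS value. In IUGR it was 1.83 and 2.67 without IUGR replicate 1 or 2 of week 8, and 2.75 and 1.98 without IUGR replicate 1 or 2 of postnatal day 3. Among edgeR fits that kept 2 libraries a group, the IUGR value passed with no count filter (adjusted p = 0.0490) and on IUGR libraries alone (0.0478). It also passed with the replicate number as a block (edgeR adjusted p = 0.0487). The IUGR value was 2.32 and 2.31 without NS replicate 1 or 2 of week 8. The values rest on 66 to 208 counts per library at postnatal day 3 and 314 to 627 at week 8.

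Fxyd7, the brain form, overlapped between week 8 and postnatal day 3. At week 8 it had 14.5 and 37.0 CPM in IUGR libraries and 10.2 and 33.6 CPM in NS libraries. At postnatal day 3 it had 6.58 and 19.5 CPM in IUGR libraries and 16.0 and 15.6 CPM in NS libraries. In both treatments the replicate 2 library was the high one at week 8, and replicate 1 lay within or below the levels of postnatal day 3. The log2 fold change with age was 1.09 ± 0.75 in IUGR (SE, adjusted p = 0.346) and 0.51 ± 0.75 in NS (SE, adjusted p = 0.674), by edgeR's test with n = 2 libraries each. Without both replicate 2 libraries of week 8 it was 0.28 in IUGR and -0.62 in NS, and without both replicate 1 libraries it was 1.61 in IUGR and 1.12 in NS. In these fits week 8 has 1 library a group and postnatal day 3 gives the spread, so no call is read from them. Fxyd7 and Fxyd1 are neighbours on chromosome 7, minus strand, at 31042513 to 31051467 and at 31051678 to 31057199, with 210 bases between them.

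By edgeR, 1 of the 6 members was called higher and 1 lower with age in each treatment. Over all genes tested, the shares called were 9.34% higher and 7.48% lower in IUGR, and 7.7% higher and 6.44% lower in NS. DESeq2 on the same 8 libraries called 3 members higher (Atp1b1, Atp1b2 and Fxyd1) and 1 lower (Fxyd6) in each treatment. Its shares over all genes were 15.8% higher and 12.9% lower in IUGR, and 14.2% higher and 11.5% lower in NS. The ages did not overlap for 4 of 6 members in both treatments, and for 66% of all genes in IUGR and 61.8% in NS. The members were picked with their levels at both ages known, so nothing is read from these counts. The median log2 fold change with age over the members was 1.70 in IUGR and 1.28 in NS, and over all genes tested it was 0.02 in IUGR and 0.04 in NS. Without the 2 postnatal day 3 libraries that went against the male label, edgeR called 0 members and 0 genes, with 2108 genes in IUGR and 1791 in NS at an unadjusted p under 0.05. The members' log2 fold changes were then 2.41 in IUGR and 2.27 in NS for Atp1b1, and -1.65 in IUGR and -2.16 in NS for Fxyd6.

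**Figure D2:**
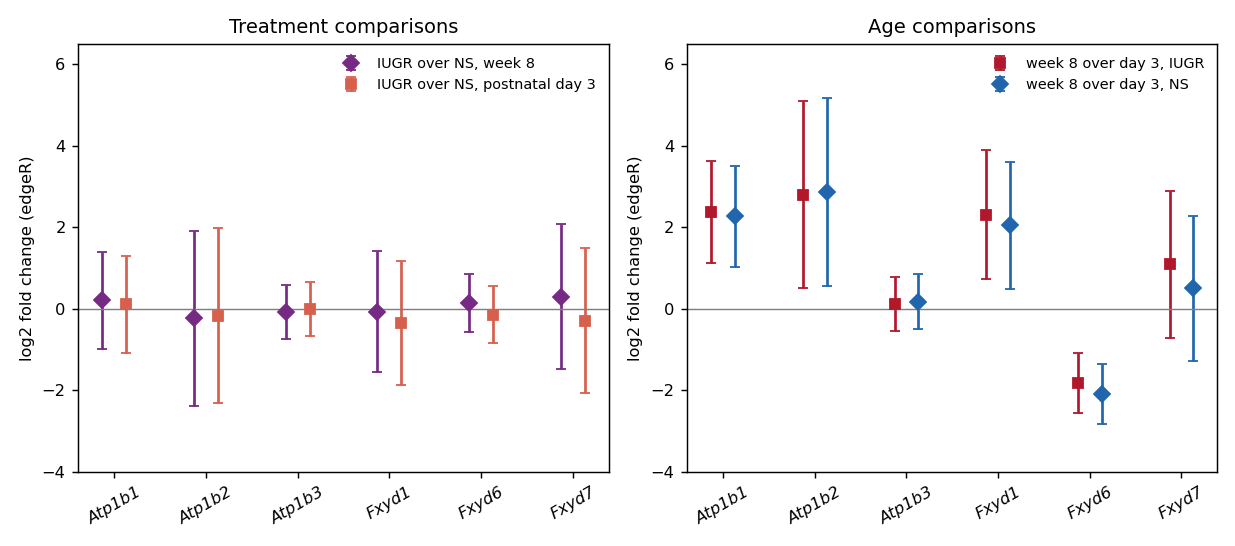
Log2 fold changes of the 6 members from edgeR with 95% intervals, for IUGR over NS at week 8 and at postnatal day 3 (left) and for week 8 over postnatal day 3 in IUGR and NS (right). The age changes of Atp1b1 (2.37 in IUGR and 2.27 in NS) and Fxyd6 (-1.82 in IUGR and -2.09 in NS) lie clear of 0, as do the intervals of Atp1b2 and Fxyd1, which did not pass the adjusted test, and every treatment interval crosses 0.

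The 250 bases before the start of the 2 members that edgeR called, 1 higher and 1 lower with age, are shown to set their makeup side by side. They are from the RefSeq promoter table (GRCm38.p6), which held 4 of the 6 members, and run 5′ to 3′ on the strand of the gene. Capitals mark the GC box GGGCGG or its reverse complement.
Atp1b1, chr1:164458356-164458605, minus strand: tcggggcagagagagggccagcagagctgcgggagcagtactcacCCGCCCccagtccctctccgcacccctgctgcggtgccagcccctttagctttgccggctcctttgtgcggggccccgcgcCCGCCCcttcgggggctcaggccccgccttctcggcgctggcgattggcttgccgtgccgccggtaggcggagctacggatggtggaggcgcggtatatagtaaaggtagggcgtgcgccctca
Fxyd6, chr9:45369935-45370184, plus strand: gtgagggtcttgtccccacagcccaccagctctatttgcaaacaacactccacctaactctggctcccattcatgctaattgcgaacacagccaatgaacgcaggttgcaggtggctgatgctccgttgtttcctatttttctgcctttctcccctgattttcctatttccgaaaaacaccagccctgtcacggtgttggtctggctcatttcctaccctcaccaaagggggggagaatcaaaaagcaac
The Atp1b1 window held 2 GC boxes and 70.4% G and C. The Fxyd6 window held none and 50.4% G and C, against a median of 52.4% over 32851 windows, of which 32.7% held a GC box. Neither window held the glucocorticoid receptor half-site AGAACA, which 16.1% of all windows held, or the TATA box TATAAA, which 12.4% held. The Fxyd6 window held 1 E-box, CANNTG, which 66.2% of all windows held. All motifs were searched on both strands, and a missing match says only that these letters are not in this window.

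Levels of different genes were compared per kilobase of deposited gene length (CPM per kb). These lengths differed unevenly from the exon bases of the GENCODE annotation. They were 712 against 2186 for Fxyd1, 1792 against 4107 for Fxyd6 and 678 against 693 for Fxyd7. For Atp1b1, Atp1b2 and Atp1b3 they were 2590 against 3081, 2959 against 4085 and 1831 against 2389. Ranks and shares between genes therefore hold for the deposited lengths only, and were not redone with exon bases. Atp1b1 ranked first at week 8, with means of 609 CPM per kb in IUGR and 554 in NS and no overlap with the next member. The other 5 members followed with means of 37.9 to 86.6 CPM per kb in IUGR and 32.3 to 106.8 in NS, and each overlapped its neighbour in that order. Fxyd6 ranked first at postnatal day 3, with means of 205 CPM per kb in IUGR and 225 in NS. It was followed by Atp1b1 at 127 in IUGR and 118 in NS, and by Atp1b3 at 51.3 in IUGR and 51.4 in NS, with no overlap between these ranks. Fxyd7, Atp1b2 and Fxyd1 came last, with Fxyd7 and Atp1b2 overlapping in IUGR and not in NS, and Atp1b2 and Fxyd1 overlapping in both.

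The mix of beta subunits was set against their summed CPM per kb. Atp1b1 made up 82.1% and 81.3% of the sum in IUGR libraries and 77.7% and 76.9% in NS libraries at week 8. Its shares at postnatal day 3 were 67.6% and 65.1% in IUGR libraries and 62.7% and 65.2% in NS libraries. Atp1b3 made up 11.1% and 5.23% in IUGR libraries and 15.0% and 4.44% in NS libraries at week 8, and 26.6% to 29.2% in all libraries of postnatal day 3. The share of Atp1b1 was thus larger, and that of Atp1b3 smaller, in every week 8 library, although the CPM of Atp1b3 overlapped between ages. The share of Atp1b2 did not separate the ages, at 6.84% to 18.7% at week 8 and 5.80% to 8.20% at postnatal day 3.

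The Fxyd mix was spread over 3 genes at week 8 and was mostly Fxyd6 at postnatal day 3. Fxyd6 made up 47.6% and 31.9% of the summed CPM per kb in IUGR libraries and 39.0% and 40.3% in NS libraries at week 8. Its shares at postnatal day 3 were 89.5% and 86.6% in IUGR libraries and 88.7% and 84.4% in NS libraries. Fxyd1 made up 20.8% to 49.9% at week 8 and 2.40% to 6.55% at postnatal day 3, and Fxyd7 11.1% to 43.8% at week 8 and 4.82% to 10.8% at postnatal day 3. Which of them led at week 8 followed the replicate number: Fxyd1 over Fxyd7 in replicate 1 and Fxyd7 over Fxyd1 in replicate 2, in both treatments. The summed level of the 3 genes was 124 to 144 CPM per kb at week 8 and 201 to 266 at postnatal day 3, so the sum was lower in every week 8 library while Fxyd1 was higher.

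**Figure D3:**
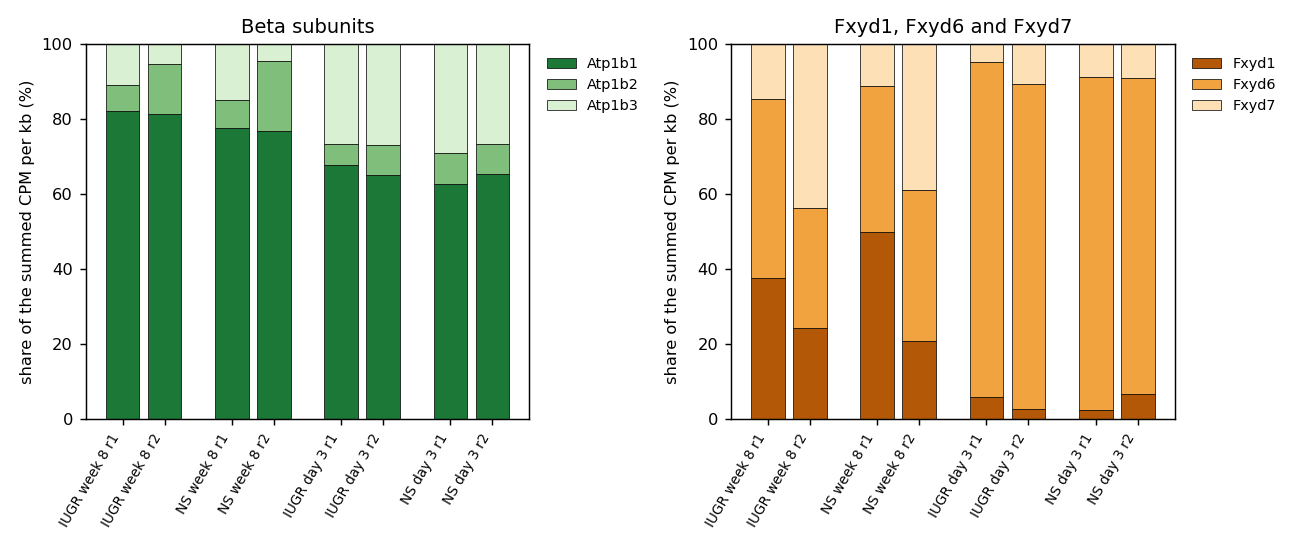
Share of each gene in the summed CPM per kb of the beta subunits (left) and of Fxyd1, Fxyd6 and Fxyd7 (right), 1 bar per library, week 8 left of postnatal day 3 and IUGR left of NS. Atp1b1 takes 76.9% to 82.1% of the beta sum at week 8, and Fxyd6 takes 31.9% to 47.6% of the Fxyd sum at week 8 and 84.4% to 89.5% at postnatal day 3.

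The study set IUGR against NS at each age, and 0 of 6 members were called by edgeR at either age. By edgeR's quasi-likelihood test with Benjamini-Hochberg adjustment, 0 of 15999 genes (0%) were called at week 8, 0 (0%) at postnatal day 3 and 0 (0%) in the difference of the IUGR effects between the ages. At an unadjusted p under 0.05 the edgeR counts were 161 genes at week 8, 96 at postnatal day 3 and 82 for the difference, with 0 of the 6 members among them. DESeq2 on all libraries called 1, 0 and 0 genes in these 3 comparisons, and limma voom called 0 in each. DESeq2 on postnatal day 3 alone called 65 genes, none of them a member. The members' adjusted p was 1.0 in all 3 edgeR comparisons.

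The largest log2 fold changes of IUGR over NS among the members at week 8 were 0.30 for Fxyd7 (95% interval -1.48 to 2.07) and -0.23 for Atp1b2 (-2.38 to 1.91). Atp1b1 was at 0.21 (-0.98 to 1.40) and the other 3 between -0.07 and 0.13. The largest at postnatal day 3 were -0.34 for Fxyd1 (-1.87 to 1.18) and -0.29 for Fxyd7 (-2.07 to 1.50), and the other 4 lay between -0.17 and 0.11. The narrowest intervals were those of Atp1b3, from -0.74 to 0.60 at week 8 and from -0.67 to 0.66 at postnatal day 3. Differences inside these intervals were not detectable with 2 libraries a group. The groups overlapped for all 6 members at week 8, where 13.1% of all genes did not overlap. Atp1b1 was the 1 member whose groups did not overlap at postnatal day 3, with 36.3% of all genes doing the same, and its IUGR mean was 1.08 times its NS mean. The difference of the IUGR effects, week 8 minus postnatal day 3, ranged over the members from -0.07 to 0.59 on the log2 scale.

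Ratios within a replicate number show how much the treatment comparison rests on single libraries. For Fxyd1 at postnatal day 3 the log2 ratio of IUGR over NS was 0.84 between the replicate 1 libraries and -1.29 between the replicate 2 libraries. For Fxyd7 it was -1.29 in replicate 1 and 0.31 in replicate 2. At week 8 it was -0.61 and 0.39 for Atp1b3 and 0.38 and -0.37 for Fxyd6. Atp1b1 at postnatal day 3 (0.06 and 0.16), and Atp1b2 (-0.27 and -0.31) and Fxyd7 (0.50 and 0.14) at week 8, had 1 sign in both numbers. For all the other member ratios of IUGR over NS the sign differed between numbers. The replicate 1 libraries of postnatal day 3 matched their male label, so their ratios are also the values without the 2 libraries that went against it.

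**Figure D4:**
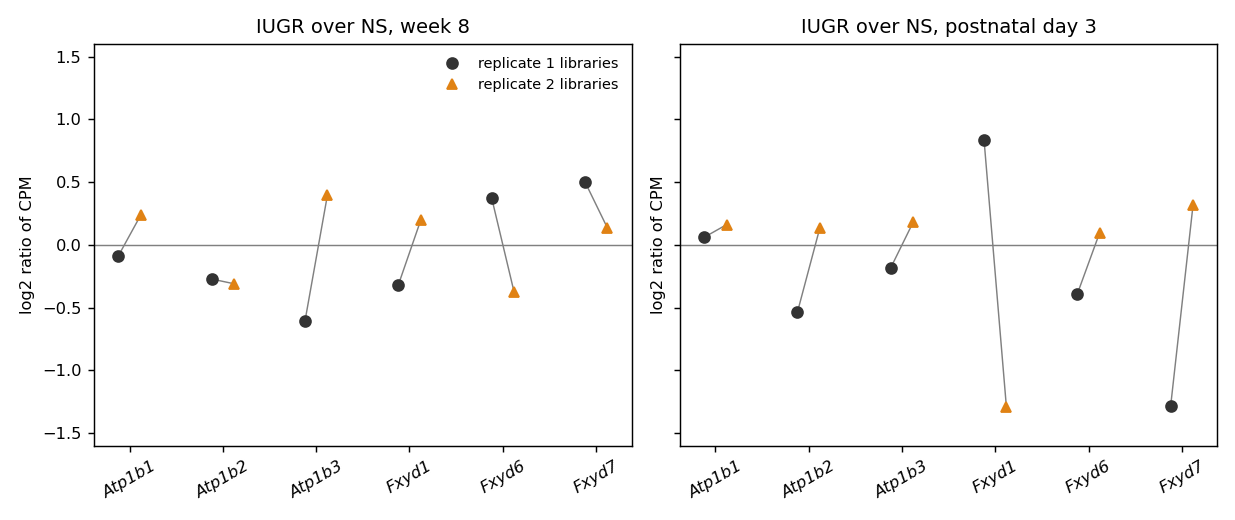
Log2 ratio of CPM, IUGR over NS, for each member between libraries of the same replicate number at week 8 (left) and postnatal day 3 (right). Fxyd1 at postnatal day 3 is at 0.84 in replicate 1 and -1.29 in replicate 2, and most members lie on both sides of 0.

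Several marker lists moved with the members. The summed CPM of 7 neuron markers was 4202 and 10928 in IUGR libraries and 3758 and 11315 in NS libraries at week 8, and 883 to 1103 in all libraries of postnatal day 3. Atp1b1, Atp1b2 and Fxyd7 were likewise higher in the replicate 2 than in the replicate 1 libraries of week 8 in both treatments. Atp1b2 differed between those libraries by 2.29 in IUGR and 2.33 in NS on the log2(CPM + 1) scale, where the median absolute difference over all genes was 0.486 in IUGR and 0.581 in NS. Fewer cells of a type, less RNA per cell and a difference between libraries such as that in Rpph1 cannot be told apart in these bulk samples. The part of the neuron markers in the Atp1b1 and Atp1b2 values was not tested. The immature neuron markers, all 6 of them called lower with age by edgeR where 7.48% of all genes in IUGR and 6.44% in NS were, summed to 728 and 1321 CPM in IUGR libraries and 659 and 1144 CPM in NS libraries at week 8, and to 6235 to 7175 CPM at postnatal day 3. With 1 library left out 2 to 6 of them were called, and without both replicate 2 libraries of postnatal day 3 none was. Fxyd6 fell with age in the same libraries. Within week 8 these markers were higher in replicate 2 in both treatments, and Fxyd6 was not. It had 123 CPM in replicate 1 and 71.0 CPM in replicate 2 of IUGR, and 94.8 and 91.8 CPM in those of NS. The part of these markers in the fall of Fxyd6 was not tested. All 7 oligodendrocyte markers were called higher with age by edgeR in both treatments, where 9.34% of all genes in IUGR and 7.7% in NS were. These markers summed to 4423 to 5626 CPM at week 8 and 93.1 to 117 CPM at postnatal day 3. Their part in the age differences of the members was not tested.

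Choroid plexus markers moved with Fxyd1 at postnatal day 3. The 6 markers summed to 3214 and 446 CPM in IUGR libraries and to 83.02 and 6256 CPM in NS libraries, and Fxyd1 took the same order over these 4 libraries, from 4.54 CPM at the lowest sum to 11.9 CPM at the highest. Most of that sum was Ttr, the transthyretin transcript, with 3107 and 413 CPM in IUGR libraries and 63.1 and 6047 CPM in NS libraries. At week 8 the sum was 65.3 and 62.2 CPM in IUGR libraries and 6677 and 79.9 CPM in NS libraries. Fxyd1 had 38.5 CPM in IUGR replicate 1 with the sum at 65.3, and 48.1 CPM in NS replicate 1 with the sum at 6677. The 6 meninges and fibroblast markers summed to 253 and 145 CPM in IUGR libraries and 551 and 131 CPM in NS libraries at week 8. Fxyd1 took that order over these 4 libraries. The sums at postnatal day 3 were 333 and 323 CPM in IUGR libraries and 557 and 553 CPM in NS libraries. Fxyd1 took another order there and was lowest in NS replicate 1, where the sum was highest. The part of both marker lists in the Fxyd1 values was not tested.

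**Figure D5:**
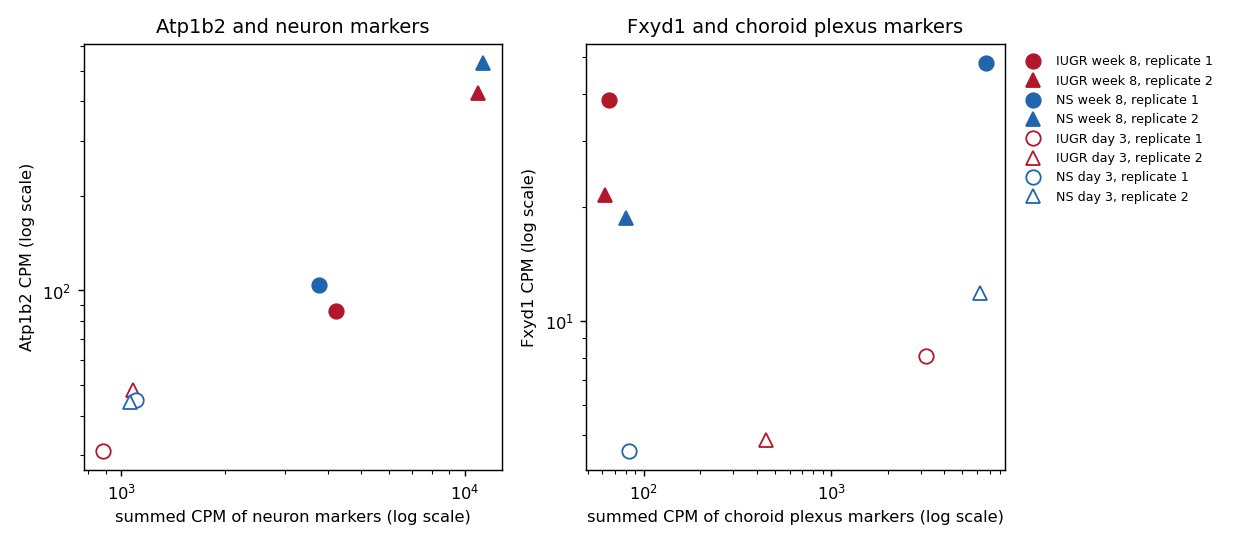
Atp1b2 CPM against the summed CPM of neuron markers (left) and Fxyd1 CPM against that of choroid plexus markers (right), log axes, 1 point per library; filled points are week 8, open points postnatal day 3, circles replicate 1 and triangles replicate 2. Atp1b2 is highest in the 2 libraries with neuron sums of 10928 and 11315, and Fxyd1 at week 8 is at 38.5 CPM with a choroid plexus sum of 65.3.

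Likeness over the 8 libraries was measured as the root mean square difference of log2(CPM + 1), centred on each gene's mean, over 11651 genes. The points share library, depth and age, so the correlations are descriptions. Nearest to Atp1b1 was Lgi1, an epilepsy gene encoding a secreted synaptic protein (difference 0.0912, r = 0.997), followed by Ppp3r1, the regulatory subunit of calcineurin (0.110). Nearest to Atp1b2 were Inpp5j (0.128) and Chst1 (0.154), and close to Fxyd6 was Nxph2 (0.119). Fxyd7 was closest to Sst, the neuropeptide somatostatin (0.232), and Fxyd1 to Glt8d2 (0.275), the widest of these. Atp1b3, which varied least, was closest to Ifnar2 (0.107). Among the members, Atp1b1 ran with Atp1b2 (r = 0.957 over 8 libraries) and opposite to Fxyd6 (r = -0.966).

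Genes related to the pump were given from a list of 13, of which 10 were tested. The list held Atp1b4, Fxyd2 to Fxyd5, Atp4a, Atp4b, Atp12a, Nkain1 to Nkain4 and Pxk. Not all of these encode parts of the sodium-potassium ATPase. IUGR against NS called 0 of the 10 at either age by edgeR. With age, edgeR called 1 of the 10 higher and 1 lower in IUGR, and 1 higher and 0 lower in NS. Over all genes tested, 9.34% were higher and 7.48% lower in IUGR, and 7.7% higher and 6.44% lower in NS. Nothing about the list is read from counts this small. With age, Nkain4, which encodes a protein that interacts with the pump, rose by edgeR's test in IUGR (log2 fold change 0.96 ± 0.20 SE, adjusted p = 0.0249) and in NS (0.83 ± 0.20 SE, adjusted p = 0.0408). It had 36.4 and 38.5 CPM in IUGR libraries and 39.8 and 36.1 CPM in NS libraries at week 8, against 19.8 to 23.5 CPM at postnatal day 3. Its relative Nkain3 fell in IUGR (-1.69 ± 0.42 SE, edgeR adjusted p = 0.0388), with 14.8 and 8.16 CPM in IUGR libraries at week 8 and 36.1 and 43.7 CPM in IUGR libraries at postnatal day 3. In NS, Nkain3 had 24.3 and 11.9 CPM at week 8 and 39.6 and 37.4 CPM at postnatal day 3, with a log2 fold change of -1.07 and an edgeR adjusted p of 0.129. The difference between the treatments in this change was -0.62 and did not pass (edgeR unadjusted p = 0.318). The call of Nkain4 in NS was lost without any 1 of the 8 libraries (edgeR adjusted p from 0.0524 to 0.284). In IUGR it was lost without any library of postnatal day 3 or either IUGR library of week 8 (0.0507 to 0.1825), and that of Nkain3 without any library of postnatal day 3 or IUGR replicate 2 of week 8 (0.0887 to 0.181, edgeR adjusted p). Fxyd5, the neighbour of Fxyd7 at a distance of 31 bases, was picked after its values were seen. It had 1.53 and 2.15 CPM in IUGR libraries and 5.71 and 4.80 CPM in NS libraries at postnatal day 3. Those groups did not overlap, and neither did those of 36.3% of all genes in the same comparison. The log2 fold change of -1.51 ± 0.48 (SE) had an unadjusted p of 0.0172 and an adjusted p of 1.0 by edgeR. The 6 meninges and fibroblast markers summed to 333 and 323 CPM in IUGR libraries and 557 and 553 CPM in NS libraries at postnatal day 3, and their part in the Fxyd5 values was not tested.

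Genes that use the sodium and potassium gradients were given from a list of 17, all of them tested. By edgeR 7 were called higher with age in IUGR and 8 in NS, and 0 lower in either, where 9.34% of all genes were higher and 7.48% lower in IUGR, and 7.7% higher and 6.44% lower in NS. The list had a median log2 fold change of 1.62 in IUGR and 1.44 in NS. With 1 library left out the numbers called higher were 1 to 9 in IUGR and 1 to 11 in NS, lowest without a library of postnatal day 3 of the same treatment, and 0 without both replicate 2 libraries of postnatal day 3. The largest were Slc24a2, a potassium-dependent sodium-calcium exchanger (3.91 ± 0.27 in IUGR and 4.05 ± 0.27 in NS, SE), Slc1a2, the glial glutamate transporter (3.38 ± 0.33 in IUGR and 3.24 ± 0.33 in NS), and Kcnj10, the glial potassium channel Kir4.1 (3.14 ± 0.67 in IUGR and 3.39 ± 0.68 in NS). Without replicate 2 of week 8 of the same treatment, Kcnj10 was at 2.12 in IUGR and 2.49 in NS and its call by edgeR was lost. The Kcnj10 call was also lost without any 1 library of postnatal day 3, in both treatments. That of Slc1a2 was lost without either postnatal day 3 library of the same treatment. Only that of Slc24a2 held with any 1 library left out. In the same libraries the 7 astrocyte markers summed to 2847 to 3315 CPM at week 8 and 958 to 1276 CPM at postnatal day 3. The gene Slc1a3 belongs to this marker list and to the 17, so the lists are not independent. The part of the astrocyte markers in these values was not tested. IUGR against NS called 0 of the 17 at either age.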

How the data were processed

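RNA-seq counts were analysed for 8 libraries of hippocampus, 2 in each of 4 groups, taken from the treatment and age labels. Each age has its own deposited table of unnormalized read counts, in which a row is a gene symbol and carries a length in bases. Per the submitters' processing notes, cutadapt 1.16, HISAT2 2.1.0, SAMtools 1.9, featureCounts 1.6.1, DESeq2 1.26.0 and the build mm10 were used. No source used here gives the annotation release or the strand setting. The normalized tables were not used here.

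The members and lists were chosen with earlier results of these data known, and some genes that the rule could name are not reported here. CPM is the count over the library total, and levels of different genes were set per kilobase of the deposited length. A count of 0 allows up to 3 counts, 0.158 to 0.2302 CPM, for counting error only. A single model with a mean for each of the 4 groups was fitted to the 8 libraries in R 4.3.3 (edgeR 4.0.16), with TMM factors (0.9498 to 1.031), the default filter on low counts, the quasi-likelihood test and Benjamini-Hochberg adjustment over 15999 genes at a threshold of 0.05. The SE is the log2 fold change over the square root of F. Alternatives used DESeq2 1.42.0, limma 3.58.1, other scalings and filters, a replicate block, single ages or treatments, and libraries left out. The scripts were tested on simulated counts.

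All 6 members were named. The genes related to the pump were given by count, with values for those called and for Fxyd5. The gradient genes were given by count and the 3 largest calls. For likeness, genes were among the 3 nearest with a mean of at least 5 CPM, without small RNAs and gene models that lack a name. Positions are from GENCODE M21 (GRCm38) and promoter windows from RefSeq.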

Additional observations from a re-analysis of the deposited data

How the results depend on the processing

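With 2 libraries a group, the calls with age are limited by single libraries. No member was called for IUGR against NS at either age, or for the difference of the effects, under any alternative run, by edgeR, DESeq2 or limma voom. The directions with age of Atp1b1, Atp1b2, Fxyd1 and Fxyd6 held under all alternatives run. The number of members called with age was 2 in IUGR and 2 in NS. It was 4 in each under DESeq2 on all libraries and 0 in each without both replicate 2 libraries of postnatal day 3. Without both replicate 2 libraries of week 8 it was 4 in IUGR and 5 in NS, without both replicate 1 libraries of week 8 it was 5 in IUGR (in these fits the week 8 groups have 1 library each, assumed to vary like postnatal day 3), and with edgeR on NS libraries alone it was 1. Leaving out 1 library gave 0 to 4 in IUGR and 0 to 3 in NS. A fit with the replicate number as a block called 4 members in IUGR and 2 in NS. Of all 15999 genes, that fit called 3500 in IUGR and 3009 in NS, in either direction. The replicate numbers share only a name in the labels: replicate differences of IUGR and NS correlated across genes at 0.862 at week 8 and -0.0816 at postnatal day 3. Calls lost or gained under the block or with libraries left out have a cause that was not tested.

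In the fits without both replicate 1 or both replicate 2 libraries of week 8 the IUGR over NS value at week 8 had a 95% interval clear of 0 for Atp1b3 (-0.52 without replicate 2 and 0.45 without replicate 1) and Fxyd6 (0.46 without replicate 2), with edgeR adjusted p from 0.305 to 0.832. For IUGR over NS at week 8 the sign changed without both replicate 1 libraries of week 8 for Atp1b3 (0.45), Fxyd1 (0.25) and Fxyd6 (-0.32), without both replicate 2 libraries for Atp1b1 (-0.00041), and under limma voom for Fxyd1 (0.059). With 1 library left out the week 8 values ranged from -0.60 to 0.81 for Atp1b1, -1.81 to 1.40 for Atp1b2, -0.38 to 0.33 for Atp1b3, -0.59 to 0.73 for Fxyd1, -0.33 to 0.47 for Fxyd6 and -0.54 to 1.43 for Fxyd7. At postnatal day 3 the sign changed for Fxyd1 without both replicate 2 libraries (0.84) and for Atp1b3 under the replicate block (0.0050), and 1 library left out gave -0.51 to 0.088 for Atp1b2, -0.089 to 0.066 for Atp1b3, -0.89 to 0.51 for Fxyd1 and -1.26 to 0.26 for Fxyd7. The difference of the effects changed sign for Atp1b2 under limma voom (0.0100), the replicate block (0.086) and without both replicate 2 libraries of postnatal day 3 (0.29). The same omission gave 0.11 for Atp1b3 and -0.92 for Fxyd1. Leaving out both replicate 1 libraries of week 8 gave 0.47 for Atp1b3 and -0.16 for Fxyd6, and both replicate 2 libraries -0.10 for Atp1b1. With 1 library left out the difference ranged from -0.71 to 0.70 for Atp1b1, -1.65 to 1.56 for Atp1b2, -0.38 to 0.36 for Atp1b3, -0.58 to 1.10 for Fxyd1, -0.17 to 0.61 for Fxyd6 and -0.25 to 1.71 for Fxyd7. With age, Atp1b3 changed sign in IUGR without both replicate 2 libraries of week 8 (-0.0061) and in NS without both replicate 1 libraries (-0.24), and Fxyd7 in NS without both replicate 2 libraries (-0.62). With 1 library left out these ranged from -0.022 to 0.23, from -0.25 to 0.49 and from -0.62 to 1.11.

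As shares of counts with no length, Atp1b1 made up 82.5% in IUGR and 78.1% in NS at week 8, and 71.2% in IUGR and 68.8% in NS at postnatal day 3. At postnatal day 3 Atp1b2 made up 10.03% in NS and Atp1b3 20.3% in IUGR and 21.2% in NS. Fxyd6 made up 62.4% in IUGR and 62.8% in NS at week 8, and 95.04% in IUGR and 94.4% in NS at postnatal day 3. Fxyd1 made up 19.3% in IUGR at week 8 and 1.76% in IUGR at postnatal day 3, and Fxyd7 3.20% in IUGR and 3.70% in NS at postnatal day 3. The order of the Fxyd group means was the same on both scales.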
